A study of Rattus norvegicus with 9 samples.

Results

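The aryl hydrocarbon receptor (AHR) and its classic target genes were followed in rat liver that was regrowing after retrorsine and partial hepatectomy. Of 18166 genes that the platform annotation names, 7 make up the set: the receptor gene Ahr, its partner Arnt, its repressor Ahrr, the cytochrome P450 genes Cyp1a1, Cyp1a2 and Cyp1b1, and Tiparp. They were chosen by gene symbol and known role, at a time when the log2 intensities of these 9 arrays, above all the low Cyp1a1 in transplanted livers, had already been seen. The difference of each member between the SHPC groups is therefore given as a description with no p-value. A probe set with the single symbol was found for 5 of the 7 (Ahr, Arnt, Ahrr, Cyp1a1 and Cyp1b1), with 1 probe set each, and all 5 passed the filter on dim genes. Cyp1a2 and Tiparp are not analysed here.

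Female F344 rats were injected with retrorsine 2 times at 30 mg/kg, 2 weeks apart, and part of the liver was removed 4 weeks after the second dose. Retrorsine is a plant alkaloid that hinders the division of mature hepatocytes, so that nests of small cells that resemble hepatocyte progenitors (SHPCs) take up the regrowth. The arrays formed 3 groups of 3: SHPC clusters without transplantation, SHPC clusters of livers given Thy1+ cells, and hepatocytes beside the clusters in livers without transplantation. All groups shared retrorsine and hepatectomy, so there was no untreated liver. Transplanted SHPCs and hepatocytes differ in both cell type and transplantation, which cannot be told apart in that comparison. The donor cells carried the enzyme DPPIV, the recipients were DPPIV-, and the cells entered by way of the spleen. Age, the interval between surgery and sampling, and the number of animals are not given in the sources used here. For the hepatocyte arrays the description label speaks of transplanted SHPCs, whereas the cell type label and title give control hepatocytes, and the cell type label was followed. The material was cut by laser from stained frozen sections, 7 µm thick. In such bulk samples fewer cells of a type and less RNA per cell cannot be told apart.

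The AHR rests in the cytosol with chaperones until a ligand binds, which may be a pollutant such as dioxin or a product of tryptophan. It then enters the nucleus, pairs with ARNT and binds DNA at sites with the core letters GCGTG. Its targets include the Cyp1 enzymes, which oxidise aromatic compounds, and also Ahrr and Tiparp, whose products restrain the receptor. In the liver without an inducer Cyp1a1 is usually low, and hepatocytes near the central vein carry most of the constitutive Cyp1a2.

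Median intensities on the linear scale were 24.1 on SHPC array 2 and 23.0 on hepatocyte array 2, whereas the remaining arrays, 7 in number, had medians of 19.6 to 20.6. The first 2 are called the arrays that stood apart, and many of the results, though not all, are given without them as well. The 7 measured hepatocyte markers had mean log2 levels of 11.2 to 11.4 on every array, with Alb and Ttr among them. The 6 cholangiocyte markers had mean levels of 4.46 to 4.59 in transplanted SHPCs, 4.37 to 4.47 in SHPCs and 4.18 to 4.34 in hepatocytes, so that hepatocytes overlapped neither SHPC group. Of single genes tested, 5.22% did not overlap between SHPCs and hepatocytes and 19.2% between transplanted SHPCs and hepatocytes. Of these markers 6 of 6 were higher in SHPCs than in hepatocytes, with a median difference of 0.15 (log2). In limma 0 of 6 passed, and 1 had an unadjusted p under 0.05, against 4.12% of all genes tested. In transplanted SHPCs against hepatocytes 4 of 6 were higher, with a median of 0.38, and 0 of 6 passed in limma. At an unadjusted p under 0.05 there were 3, against 10.4% of all genes tested. Without the arrays that stood apart 2 of 6 passed, where 575 of the 15793 genes did. Mean levels of the 8 Kupffer cell markers were 7.89 to 8.15 in transplanted SHPCs, 6.89 to 7.71 in SHPCs and 7.45 to 7.93 in hepatocytes, and those of the 9 stellate cell and fibroblast markers were 6.21 to 6.36, 5.69 to 6.15 and 5.93 to 6.32. All 8 Kupffer cell markers were higher in transplanted SHPCs than in SHPCs, with a median difference of 0.58 (log2), which was 0.28 without those 2 arrays, and 7 of 8 were higher after quantile normalization or cyclic loess. Between the SHPC groups 0 of 8 Kupffer cell markers passed in limma, and 3 of 8 had an unadjusted p under 0.05, against 7.35% of all genes tested. In transplanted SHPCs against hepatocytes 1 of 8 passed, against 1.18% of genes. That was Marco (0.80 ± 0.16, SE, limma adjusted p = 0.0456). The Marco call ended after median centring (0.0951), renewed quantile normalization (0.146) and cyclic loess (0.198), with no filter on dim genes (0.0503), over all probe sets (0.114), with a trended prior (0.0968) and for the compared groups alone (0.0602). It also ended without any 1 of the 6 compared arrays or without SHPC array 1 or 3 (limma adjusted p from 0.0612 to 0.203). Endothelial markers, 4 in number, had mean levels of 7.17 to 7.39, 6.70 to 7.22 and 6.87 to 7.38 in the same order of groups, and the 4 lymphocyte markers 4.34 to 4.39, 4.31 to 4.55 and 4.33 to 4.50. The part of these cells in the values below was not tested. No marker had a value of 0. Throughout, levels are log2 of the deposited RMA intensity. A level does not rank one gene against another, since probe sets differ in brightness.

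The core letters GCGTG were looked for on both strands of RefSeq promoter windows (GRCr8), each from 250 bases before to 50 after a gene's start. A window was found for 6 of the 7 members, all but Cyp1a1. GCGTG or its reverse complement CACGC stood in 29.7% of all 33469 windows. Among the members Ahrr held 3, Cyp1b1 2, Arnt 1, Tiparp 1, and Ahr and Cyp1a2 0 within the window. As many as in Ahrr were found in 3.59% of all windows. The matches of the measured members are printed on the strand of the gene, 5′ to 3′, with 8 bases on either side and the core in capitals, because they are the letters that the receptor and ARNT are known to contact.
Ahrr at chr1:30822069-30822089, plus strand: caaagggcGCGTGgcaggcag
Ahrr at chr1:30822094-30822114, plus strand: caggatgtGCGTGcgccccct
Ahrr at chr1:30822154-30822174, plus strand: ggccgctcGCGTGctggggtg
Cyp1b1 at chr6:21094476-21094496, plus strand: ccgcccctCACGCcccacccc
Cyp1b1 at chr6:21094537-21094557, plus strand: gagggatgGCGTGtcgcctct
Arnt at chr2:185686653-185686673, plus strand: ggtatgggGCGTGtcttctcc
A match is a run of letters and not a measured binding site. CACGC on the printed strand is the core on the other strand.

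Cyp1a1, the inducible enzyme most used as a readout of the receptor, had the largest difference of the members in both comparisons with SHPCs, while Ahr had the largest in transplanted SHPCs against hepatocytes. Its log2 levels (probe set 17844555) were 5.99, 5.87 and 6.84 on SHPC arrays 1 to 3. In hepatocytes beside the clusters they were 4.38, 4.61 and 5.10, and in SHPCs of transplanted livers 4.23, 4.18 and 4.00. The 3 groups did not overlap: each SHPC array lay above each hepatocyte array, and each hepatocyte array above each transplanted array. The group means were 6.23 ± 0.53 in SHPCs, 4.70 ± 0.37 in hepatocytes and 4.13 ± 0.12 in transplanted SHPCs (SD, n = 3 each). On the linear scale these were 78.8 ± 30.9, 26.6 ± 7.03 and 17.6 ± 1.46 (SD, n = 3 each). Ranked among all 36685 probe sets of its array, Cyp1a1 stood at percentiles 77.0 to 86.5 in SHPCs, 51.4 to 64.1 in hepatocytes and 43.8 to 48.4 in transplanted SHPCs. It was thus above the array's median on all SHPC and hepatocyte arrays and below it on all transplanted arrays.

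The difference of Cyp1a1 between transplanted SHPCs and SHPCs was −2.10 ± 0.26 (log2, SE), or 4.28-fold lower. Without SHPC array 2 and hepatocyte array 2 it was −2.28. Across 23 alternatives it lay between −2.34 and −1.45, the smallest size being that on the log2(value + 16) scale, which shrinks differences of dim genes.

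**Figure D1:**
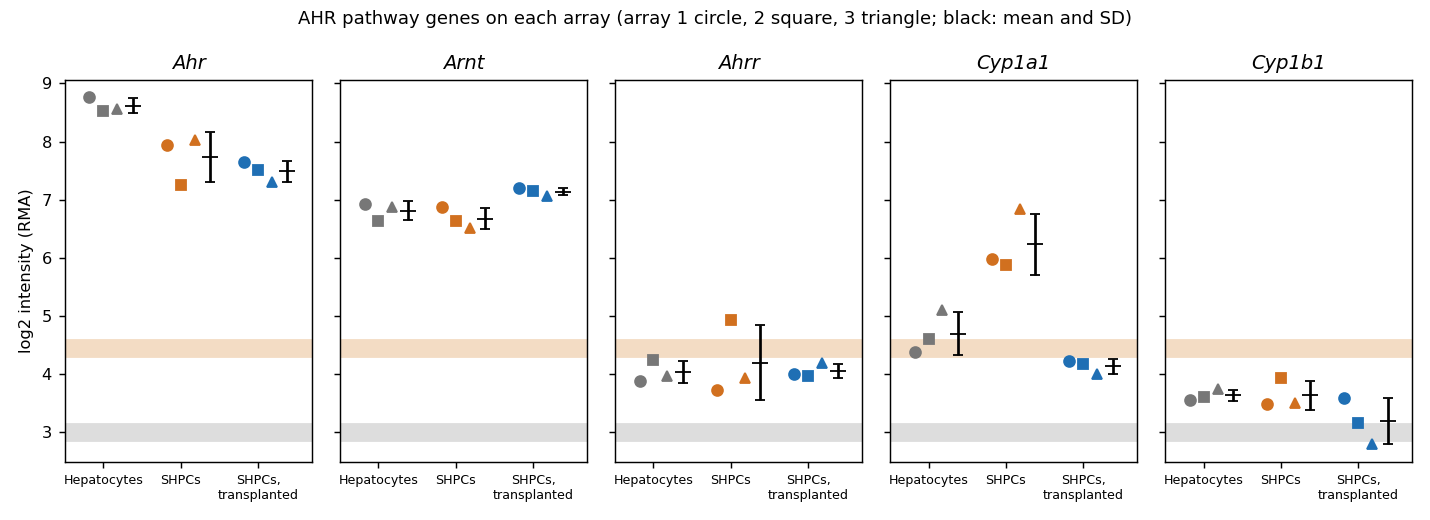
Log2 RMA intensity (vertical axis) of the 5 measured members on each array, by group (horizontal axis), with the mean and SD of 3 arrays in black; the orange and grey bands span the arrays' medians and 25th percentiles. Cyp1a1 sits between 5.87 and 6.84 in SHPCs, above all arrays of the other groups, and Ahr sits between 8.52 and 8.76 in hepatocytes, above all SHPC arrays.

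SHPCs and the hepatocytes beside them were compared to see how the clusters differ from neighbouring tissue. This comparison shares the SHPC arrays with the one in which Cyp1a1 had been noticed, so it is no independent support. Cyp1a1 was 1.53 ± 0.26 (log2, SE) higher in SHPCs, or 2.89-fold, and did not pass over all genes (limma adjusted p = 0.114). Same-numbered arrays of these groups deviated together, and so did arrays 1 and 3 across numbers. The differences by number were 1.61, 1.26 and 1.73, all in the same direction. With the replicate number as a block Cyp1a1 passed (limma adjusted p = 0.0304). That fit also put the transplanted arrays into the blocks, although their numbers do not pair with those of the other groups. Cyp1a1 passed too with the block in a fit of these 2 groups alone (limma adjusted p = 0.0142), a fit chosen after seeing the data. Without the block it also passed once SHPC array 2 was left out (limma adjusted p = 0.0411, difference 1.71), and not without both arrays that stood apart (limma adjusted p = 0.101, difference 1.67). Between transplanted SHPCs and hepatocytes Cyp1a1 differed by −0.57 ± 0.26 (SE, limma adjusted p = 0.503).

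Ahr, the gene of the receptor itself, had another order of levels. On the log2 scale it stood at 8.76, 8.52 and 8.56 in hepatocytes (probe set 17821591). SHPC arrays gave 7.94, 7.25 and 8.02, and transplanted SHPC arrays 7.65, 7.51 and 7.30. The hepatocyte arrays were the highest, with no overlap, whereas the SHPC groups overlapped through SHPC array 2 alone. The means were 8.61 ± 0.13, 7.73 ± 0.43 and 7.49 ± 0.17 (SD, n = 3 each), and on the linear scale 393 ± 36.4, 219 ± 58.5 and 180 ± 21.6 (SD, n = 3 each). Ahr remained among the brighter probe sets, at percentiles 90.1 to 96.9 over the 9 arrays.

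Ahr was lower in transplanted SHPCs than in hepatocytes by a log2 difference of −1.13 ± 0.21 (SE, limma adjusted p = 0.0358), which is 2.18-fold, and it was the only member that passed in this comparison. Without both arrays that stood apart the difference was −1.17 (limma adjusted p = 0.00442). The call ended without any one of the 3 transplanted or 3 hepatocyte arrays (limma adjusted p from 0.0947 to 0.189, differences from −1.21 to −1.03), after median centring (0.203), over all probe sets (0.0943) and with a trended prior (0.0530). SHPCs without transplantation differed from hepatocytes by −0.88 ± 0.21 (SE), with differences by array number of −0.83, −1.28 and −0.54. That difference did not pass (limma adjusted p = 0.413, and 0.154 with the replicate block over all groups). It passed after cyclic loess (0.0381) and with array quality weights (0.0284). Between the SHPC groups Ahr differed by −0.25 ± 0.21 (log2, SE), within the range of the SHPC arrays. It was −0.49 ± 0.13 (SE) without both arrays that stood apart, where the SHPC arrays lay above all transplanted arrays. With SHPC array 2 included, the low Cyp1a1 of transplanted SHPCs stood beside Ahr levels that overlapped those of SHPCs. Hepatocytes, with the highest Ahr, held the middle level of Cyp1a1. Whether Ahr and Cyp1a1 levels are linked was not tested.

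Arnt, the partner that the activated receptor needs for DNA binding and that the hypoxia factors use too, lay between 6.52 and 7.20 (log2). Its levels (probe set 17740832) were 7.20, 7.15 and 7.07 in transplanted SHPCs, 6.88, 6.63 and 6.52 in SHPCs, and 6.93, 6.63 and 6.87 in hepatocytes. The transplanted arrays were the highest and did not overlap either other group, while SHPCs and hepatocytes overlapped. The difference between the SHPC groups was 0.46 ± 0.14 (log2, SE), or 1.38-fold, and ranged from 0.32 to 0.57 across 23 alternatives. Against hepatocytes transplanted SHPCs differed by 0.33 ± 0.14 (SE, limma adjusted p = 0.467), and SHPCs by −0.14 ± 0.14 (SE, limma adjusted p = 1.00).

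Ahrr and Cyp1b1 are both known to follow the active receptor, and both were dim. Ahrr, the repressor that competes for ARNT, was above its array's median on 1 of 9 arrays. That was SHPC array 2, one of those that stood apart, at 4.94. The other SHPC arrays gave 3.73 and 3.93, the hepatocyte arrays 3.89, 4.25 and 3.97, and the transplanted arrays 4.01, 3.97 and 4.19 (probe set 17611299). Ahrr, whose promoter window held the most core matches, overlapped between all groups, and its differences lay between −0.14 ± 0.27 and 0.16 ± 0.27 (log2, SE). The sign of its difference between the SHPC groups turned without SHPC array 2, from −0.14 to 0.23. Cyp1b1, which in many tissues is made by mesenchymal rather than epithelial cells, was below its array's median on all 9 arrays (probe set 17819669). It gave 3.48, 3.93 and 3.50 in SHPCs, 3.57, 3.61 and 3.75 in hepatocytes and 3.60, 3.17 and 2.81 in transplanted SHPCs. The last value was under the 25th percentile of that array. Transplanted SHPCs overlapped both other groups, and differed by −0.45 ± 0.21 (log2, SE) from SHPCs and by −0.45 ± 0.21 from hepatocytes (SE, limma adjusted p = 0.494). Without both arrays that stood apart these differences were −0.30 and −0.47. SHPCs and hepatocytes differed by −0.00 ± 0.21 (SE, limma adjusted p = 1.00). Low brightness bounds what these probe sets can show, and no level near the dim end is read as absence.

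**Figure D2:**
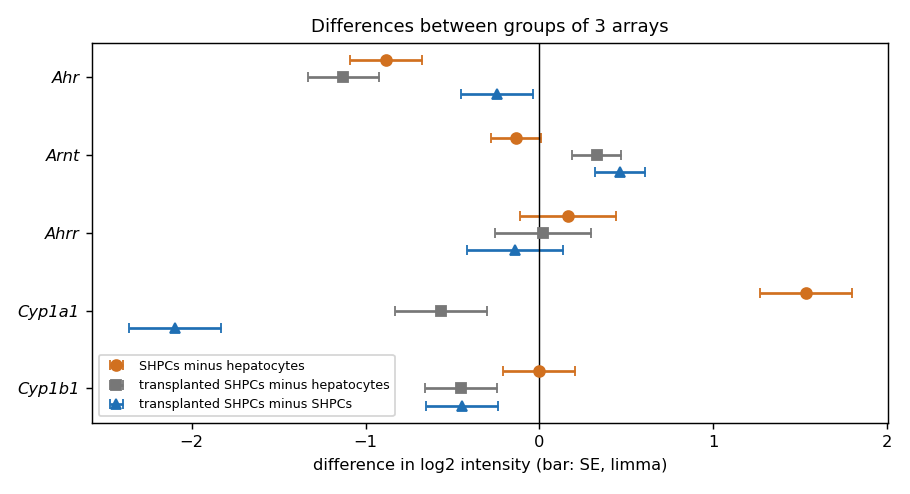
Difference in log2 intensity (horizontal axis) of the 5 measured members in each comparison of 3 against 3 arrays, with limma's SE as bars. Cyp1a1 has the widest spread, from −2.10 for transplanted SHPCs minus SHPCs to 1.53 for SHPCs minus hepatocytes, while Ahr lies left of 0 in all 3 comparisons.

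Counted over the members, 0 of 5 passed between the SHPC groups, where 0.00633% of the 15793 genes tested passed in limma. At an unadjusted p under 0.05 there were 2 of 5 members, against 7.35% of genes. The groups did not overlap for 2 of 5 members (Cyp1a1 lower and Arnt higher in transplanted SHPCs), against 15.8% of all genes, and nothing is read from either count because this contrast was in view when the set was made. Between SHPCs and hepatocytes 0 of 5 members passed in limma, against 0.0633% of genes, and 2 of 5 had an unadjusted p under 0.05, against 4.12% of genes. The 2 were Cyp1a1, higher, and Ahr, lower, and they were also the 2 of 5 whose groups did not overlap, against 5.22% of genes. With the replicate block 1 of 5 passed, against 0.222% of genes, in a fit that also blocked the transplanted arrays by number. With the block and only the compared groups fitted, a fit chosen after seeing the data, 1 of 5 passed, against 0.481% of genes. Between transplanted SHPCs and hepatocytes 1 of 5 passed in limma, against 1.18% of genes. An unadjusted p under 0.05 was found for 2 of 5, against 10.4% of genes, and 3 of 5 did not overlap, against 19.2%. The median difference over the 5 members was −0.25 between the SHPC groups, −0.00 for SHPCs against hepatocytes and −0.45 for transplanted SHPCs against hepatocytes (log2). The comparisons share arrays in pairs, and so these counts do not add up to separate evidence.

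Genes whose levels ran most like Cyp1a1 were sought among 15668 tested genes by Pearson's r over the 9 arrays, as a description only, since arrays of a group share their tissue. The 5 highest were Faap20 (r = 0.932), which encodes a partner of the Fanconi anaemia core complex, Eef1a1l1 (0.916), Cgref1 (0.909), Rps26-ps12 (0.893) and Fabp2 (0.890), the intestinal fatty acid binding protein gene. Over the 7 arrays without those that stood apart r was 0.925, 0.915, 0.918, 0.931 and 0.897. Their sizes differed widely. Fabp2 went from 7.20 ± 0.43 in SHPCs to 5.65 ± 0.28 in transplanted SHPCs (log2 level, SD, n = 3 each), with 6.60 ± 0.39 in hepatocytes between them. Eef1a1l1 and Rps26-ps12 have near-identical copies in the genome, so their probe sets may carry signal of other genes. Faap20 spanned only 5.53 ± 0.10 in SHPCs to 5.31 ± 0.07 in hepatocytes. None of the other members was among the nearest: r with Cyp1a1 was 0.457 for Cyp1b1, 0.0701 for Ahrr, 0.0187 for Ahr and −0.767 for Arnt over the 9 arrays. Over the 7 arrays it was 0.404, −0.580, 0.264 and −0.903, so the sign for Ahrr turned.

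**Figure D3:**
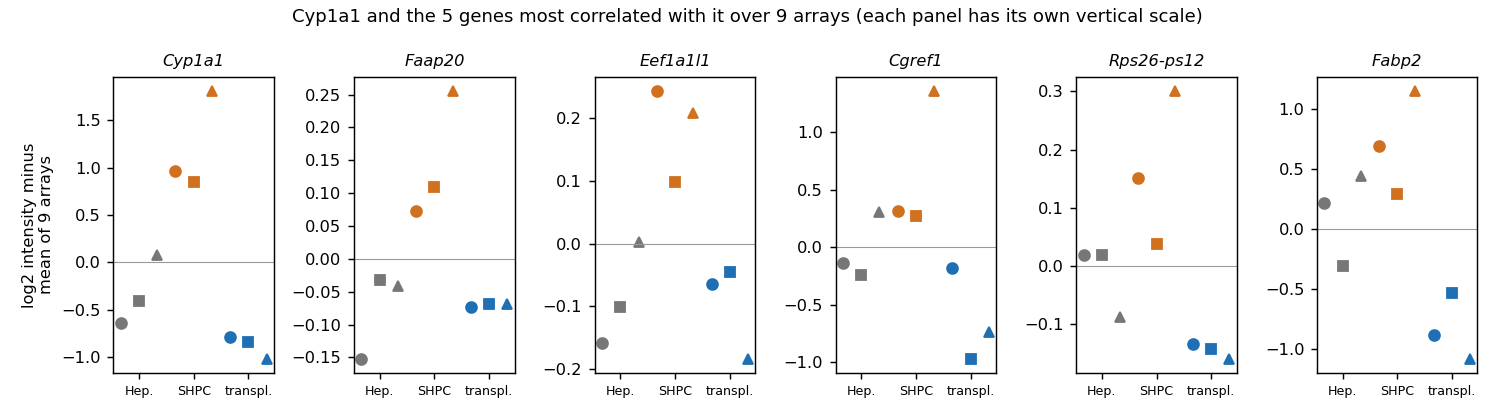
Log2 intensity minus the mean of the 9 arrays (vertical axis, scaled per panel) for Cyp1a1 and the 5 genes most correlated with it, by group (Hep., hepatocytes; transpl., transplanted SHPCs) and array number (circle, square, triangle for 1, 2, 3). Each SHPC array of Cyp1a1 lies above the arrays of the other groups, and r ranges from 0.932 for Faap20 to 0.890 for Fabp2.

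Other genes around the receptor were read from lists. Beside a list's median stands the median of all 15793 genes, which was 0.02 between the SHPC groups, −0.01 for SHPCs against hepatocytes and −0.00 for transplanted SHPCs against hepatocytes (log2). Median centring of each array would add 0.103, −0.0101 and 0.0928 to these. In the same order 7.35%, 4.12% and 10.4% of all genes tested had an unadjusted p under 0.05. In limma 0.00633%, 0.0633% and 1.18% passed. Of the chaperones that hold the receptor in the cytosol, Hsp90ab1 and Ptges3 were measured, and 0 of 2 passed in limma in any comparison, with 1 unadjusted p under 0.05 (Hsp90ab1, transplanted SHPCs against hepatocytes). Hsp90ab1, a gene of the HSP90 pair that binds the receptor, was at 9.46 ± 0.30 in hepatocytes, 9.19 ± 0.39 in SHPCs and 8.87 ± 0.11 in transplanted SHPCs (SD, n = 3 each). Its difference between the last and the first was −0.60 ± 0.22 (SE, limma adjusted p = 0.346). Hsp90ab1 passed without both arrays that stood apart (difference −0.77, limma adjusted p = 0.0258), where 575 of the 15793 genes did. Of 7 other genes of the bHLH-PAS family, to which Ahr and Arnt belong, 0 passed in limma, with 1, 1 and 2 at an unadjusted p under 0.05 between the SHPC groups, for SHPCs against hepatocytes and for transplanted SHPCs against hepatocytes. The largest differences between the SHPC groups were those of the clock gene Bmal1, 0.57 ± 0.21 (SE, limma adjusted p = 0.599), and of the hypoxia factor gene Hif1a, 0.51 ± 0.33 (SE, limma adjusted p = 0.716). Without the arrays that stood apart these were 0.42 and 0.20. Of 6 coregulators 0 passed in limma, with 0 at an unadjusted p under 0.05, in all 3 comparisons. Their median between the SHPC groups was 0.21, with Ncoa3 at 0.30 ± 0.14 and Ncoa1 at 0.26 ± 0.19 (SE), which were 0.19 and 0.067 without the arrays that stood apart. The list median was 0.07 without those arrays and 0.04 after cyclic loess.

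In the list of 10 further AHR battery genes, which the receptor shares with other stress regulators, the median difference between the SHPC groups was 0.40, 7 were higher and 3 lower in transplanted SHPCs, and 0 of 10 passed in limma, with 2 at an unadjusted p under 0.05. Without both arrays that stood apart the median was 0.16, and after cyclic loess 0.19. Nqo1, a quinone reductase that NRF2 also drives, was at 7.39, 7.05 and 7.40 in transplanted SHPCs and 6.36, 5.75 and 6.47 in SHPCs. These groups did not overlap, and they differed by 1.09 ± 0.24 (log2, SE, limma adjusted p = 0.275). The glutathione transferase gene Gsta2 was at 9.61, 9.27 and 9.39 against 8.87, 4.99 and 7.14, a difference of 2.43 ± 0.76 (SE, limma adjusted p = 0.478). It was 1.42 without SHPC array 2 and hepatocyte array 2, the SHPC array 2 value being the lowest of the 9. Against hepatocytes, which stood at 6.67 ± 0.65 (SD, n = 3), Gsta2 was higher in transplanted SHPCs by 2.76 ± 0.76 (SE, limma adjusted p = 0.170), and it passed without both arrays (difference 2.43, limma adjusted p = 0.0285). Near-identical glutathione transferase genes may share signal on such probe sets. SHPCs against hepatocytes had a list median of −0.09, with 0 of 10 passing in limma and 1 at an unadjusted p under 0.05. In transplanted SHPCs against hepatocytes the list median was 0.11, with 6 higher and 4 lower. There 0 of 10 passed in limma, and 3 had an unadjusted p under 0.05, against 10.4% of genes. Without both arrays that stood apart 1 of 10 passed, where 575 of the 15793 genes did.

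Tryptophan breakdown yields products that include AHR ligands. In transplanted SHPCs against hepatocytes 2 of its 7 measured genes passed in limma, both higher, against 1.18% of all genes tested. The list median was 0.91. Without both arrays that stood apart it was 0.53, and 3 of 7 passed, where 575 of the 15793 genes did. Tdo2, the liver enzyme that opens the tryptophan ring, was at 11.81, 11.64 and 11.75 in transplanted SHPCs and 10.97, 10.84 and 10.66 in hepatocytes. SHPCs lay between, at 11.49, 11.23 and 11.27, with no overlap between groups. Transplanted SHPCs exceeded hepatocytes by 0.91 ± 0.14 (log2, SE, limma adjusted p = 0.0189). Kmo, kynurenine monooxygenase, which turns kynurenine to hydroxykynurenine, was at 9.98, 9.99 and 9.93 against 9.17, 8.60 and 9.08, a difference of 1.02 ± 0.20 (SE, limma adjusted p = 0.0444). The Tdo2 call ended without any 1 of the transplanted arrays or without hepatocyte array 2 or 3 (limma adjusted p from 0.0524 to 0.110), and the Kmo call without any 1 of the 6 compared arrays or SHPC array 3 (0.0733 to 0.200). Both calls also ended after median centring and over all probe sets, that of Tdo2 after cyclic loess and that of Kmo with a trended prior. Between the SHPC groups 0 of 7 passed in limma, 3 had an unadjusted p under 0.05, and the median was 0.40 (0.18 without both arrays that stood apart). The largest differences there were Aadat at 0.94 ± 0.59 (SE, limma adjusted p = 0.708, 0.18 without both arrays) and Ido2 at 0.84 ± 0.21 (SE, limma adjusted p = 0.310). For SHPCs against hepatocytes 0 of 7 passed in limma, 1 had an unadjusted p under 0.05, and the median was 0.09. Tdo2 there differed by 0.51 ± 0.14 (SE, limma adjusted p = 0.560).

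P450 enzymes take electrons from Por and cytochrome b5. Of Por, Cyb5a and Cyb5r3, 0 of 3 passed in any comparison in limma. In transplanted SHPCs against hepatocytes 3 of 3 passed after cyclic loess, 1 higher and 2 lower, where 440 of the 15793 genes did. After renewed quantile normalization 1 of 3 passed, where 328 genes did. On the deposited scaling there were 1, 0 and 2 at an unadjusted p under 0.05 between the SHPC groups, for SHPCs against hepatocytes and for transplanted SHPCs against hepatocytes. Por was at 8.80 ± 0.04 in transplanted SHPCs, 9.07 ± 0.30 in SHPCs and 9.37 ± 0.28 in hepatocytes (SD, n = 3 each). Transplanted SHPCs differed from hepatocytes in Por by −0.57 ± 0.19 (SE, limma adjusted p = 0.278), and the gene passed without both arrays that stood apart (limma adjusted p = 0.0139). Cyb5r3, the reductase of cytochrome b5, differed between the SHPC groups by 1.39 ± 0.44 (SE, limma adjusted p = 0.478) and by 0.85 without those arrays. Against hepatocytes Cyb5r3 was higher in transplanted SHPCs by 1.33 ± 0.44 (SE, limma adjusted p = 0.275), and it too passed without those arrays (difference 0.99, limma adjusted p = 0.0181). Without those arrays 575 of the 15793 genes passed in this comparison.

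Pericentral genes were listed because hepatocytes near the central vein hold most Cyp1a2 and respond to AHR ligands. Of 10 measured, 9 were lower in SHPCs than in hepatocytes, with a median of −0.55. At an unadjusted p under 0.05 there were 7, against 4.12% of genes, and 1 passed in limma, against 0.0633%. That was Slc1a2, a glutamate transporter gene, at 4.67, 4.94 and 5.37 in SHPCs against 7.10, 6.82 and 6.78 in hepatocytes, a difference of −1.90 ± 0.25 (log2, SE, limma adjusted p = 0.0314). With the replicate block in a fit of these groups alone 3 of 10 passed, against 0.481% of genes, and these were Slc1a2, Oat and Tbx3. The Slc1a2 call ended without SHPC array 1, without transplanted array 2 or 3, or without hepatocyte array 1, 2 or 3 (limma adjusted p from 0.0671 to 0.196). It also ended without both arrays that stood apart (0.0703), after median centring (0.113), over all probe sets (0.106) and in an unblocked fit of these groups alone (0.170). In transplanted SHPCs against hepatocytes 10 of 10 were lower, with 5 at an unadjusted p under 0.05, against 10.4% of genes. In limma 2 of 10 passed, against 1.18% of genes. These were Slc1a2 at −2.31 ± 0.25 (SE, limma adjusted p = 0.00346) and the transcription factor gene Tbx3 at −0.90 ± 0.17 (SE, limma adjusted p = 0.0368). After each of the 3 other scalings 9 of 10 were lower. The Tbx3 call ended without SHPC array 1 or 3, any 1 transplanted array or hepatocyte array 2 or 3 (limma adjusted p from 0.0517 to 0.191), after median centring (0.0971), over all probe sets (0.0954) and in a fit of these groups alone (0.0537). The Slc1a2 call against transplanted SHPCs held in all 23 alternatives, with a limma adjusted p of at most 0.0364. Without both arrays that stood apart 4 of 10 passed in that comparison, where 575 of the 15793 genes did. Between the SHPC groups the pericentral median was 0.02, and it was −0.09 without those arrays and −0.11 after cyclic loess. There 0 of 10 passed in limma, with 1 at an unadjusted p under 0.05. The largest differences were Oat at 0.85 ± 0.45 (SE, limma adjusted p = 0.705) and Cyp27a1 at 0.62 ± 0.25 (SE, limma adjusted p = 0.653), which were 0.29 and 0.28 without those arrays.

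**Figure D4:**
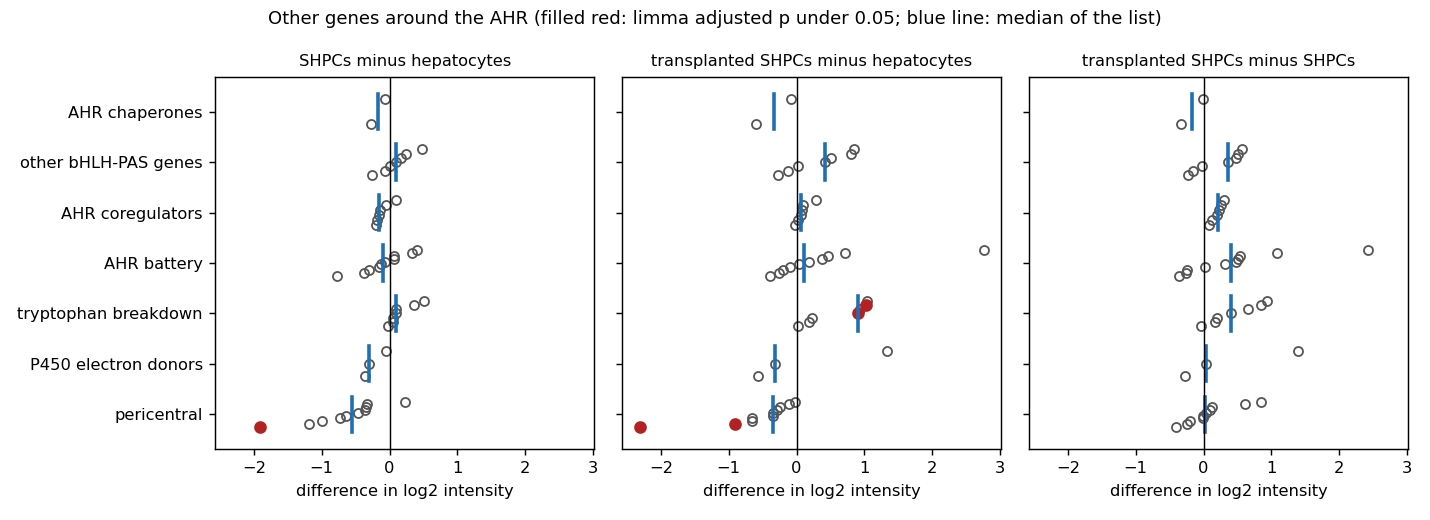
Difference in log2 intensity (horizontal axis) of each measured gene of 7 lists around the AHR, by comparison; filled red circles passed at a limma adjusted p under 0.05 and blue lines are list medians. Transplanted SHPCs minus hepatocytes holds 4 filled circles (Tdo2 and Kmo right of 0, Slc1a2 and Tbx3 left of 0), SHPCs minus hepatocytes holds 1, and the panel of the SHPC groups holds 0.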

How the data were processed

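The authors deposited 1 linear intensity per probe set and array, made with RMA per the submitters' processing notes, for 36685 probe sets on 9 arrays. In RMA the background is removed, arrays are brought to a shared distribution and probes are combined per probe set. The sources used here do not give its version or settings. It compresses differences of dim probe sets. The deposited values did not share a distribution, as array medians ran from 19.6 to 24.1 on the linear scale. Why they differ was not tested. No genome build is given for the files. Log2 of each value was taken. The platform annotation gives 1 symbol for 18511 probe sets, several for 575 (not named) and none for 17599. The probe set with the highest mean stood for a gene (291 genes had several), and a gene was tested if at least 3 arrays exceeded their 25th percentile, which kept 15793 of 18166 genes.

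limma 3.58.1 (R 4.3.3) fitted 3 group means over all 9 arrays with eBayes and Benjamini-Hochberg adjustment over all tested genes at 0.05. The fit was also run on simulated arrays with known changes and independent noise. That run held no shared deviations between arrays, so it does not test the calls on these arrays. Nothing says that arrays of a group come from separate animals, so p-values measure only the spread between arrays, and the number of arrays limits the precision. The labels number the arrays in each group. Same-numbered SHPC and hepatocyte arrays deviated from their group means together (r = 0.526, 0.705 and 0.341 over genes), so the number was used as a block for that comparison. SHPC array 3 with hepatocyte array 1 had 0.480, and SHPC array 1 with hepatocyte array 3 had 0.237. Array 2 with another number had −0.606 to −0.346. The numbers thus do not settle which arrays pair. For the transplanted group's numbers r lay between −0.0936 and 0.00234, yet the block fit over all 9 arrays holds that group too. Alternatives were median centring, renewed quantile normalization, cyclic loess, filters, mean or all probe sets, compared groups alone, array weights, log2(value + 16), a trended prior, the replicate block and leaving out arrays.

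Members and lists were chosen with earlier results of these data known. Named genes were all members, list genes that passed in any comparison, up to 2 per list with the largest difference between the SHPC groups, and the 5 genes most correlated with Cyp1a1; the same search for Cyp1a2 was not run, as it is not analysed here. Genes that passed only in an alternative fit were named after their values were seen. Promoter windows are RefSeq's.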

Additional observations from a re-analysis of the deposited data

How the results depend on the processing

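Every member count rests on 3 arrays a group. Between the SHPC groups 0 members passed, and 1 did after renewed quantile normalization, after cyclic loess, with array quality weights, and without SHPC array 2 and hepatocyte array 2, while leaving out single arrays gave 0 to 1. The replicate numbers do not pair these groups, and the replicate block, fixed or random, gave 1 here. Where 1 passed between the SHPC groups it was Cyp1a1. Its difference there was in view when the set was made, so nothing is read from these counts. For SHPCs against hepatocytes 0 passed, and 1 did after cyclic loess and with the replicate block (fixed, random, or with only the compared groups fitted, which gave 76 genes in all), 2 with array quality weights, and 0 to 1 without single arrays. For transplanted SHPCs against hepatocytes 1 passed, and the count was 0 after median centring, over all probe sets and with a trended prior, 2 with array quality weights, 0 to 1 without single arrays and 1 with the replicate block. The signs of 2 dim genes turned. In SHPCs against hepatocytes Ahrr went from 0.16 to −0.088 with array quality weights and −0.10 without both arrays that stood apart, and lay between −0.21 and 0.40 without single arrays. Cyp1b1 there went from −0.00 to 0.0018 on the log2(value + 16) scale, and lay between −0.15 and 0.074 without single arrays. In transplanted SHPCs against hepatocytes Ahrr lay between −0.051 and 0.13 without single arrays. Cyp1a1 and Ahr kept their sign in all alternatives of all 3 comparisons. The cause of these shifts was not tested. Genes passing over the whole table were 1, 10 and 186 in the 3 comparisons. With array quality weights these became 259, 375 and 2685, after median centring 0, 0 and 47, after cyclic loess 40, 34 and 440, after renewed quantile normalization 17, 17 and 328, over all probe sets 1, 0 and 63, for the compared groups alone 0, 0 and 304, on the log2(value + 16) scale 0, 6 and 161, with the replicate block 64, 35 and 367, and with it as a random effect 10, 29 and 305. Without both arrays that stood apart they were 23, 48 and 575, and without single arrays 0 to 24, 0 to 53 and 31 to 472. A filter at the arrays' medians left Ahrr and Cyp1b1 untested.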
